A study of Mus musculus with 22 samples.

Results

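The arcuate nucleus (ARC) was compared with the paraventricular nucleus (PVH) of the same control mice by small RNA sequencing. All 12 libraries of the control group were taken, 6 of ARC and 6 of PVH, of 22 libraries in the series, and all 172 miRNAs that both deposited tables list were tested. Every mouse was a male C57BL/6J offspring on chow, killed at 8 weeks of age. Off-C mice were born to lean dams on chow, and the remaining 10 libraries (5 ARC, 5 PVH) came from Off-Ob mice, born to dams made obese with a high-fat diet supplemented with condensed milk. Both nuclei were cut from frozen brain sections by laser capture microdissection, so each library holds all cell types of a nucleus, and fewer cells of a type cannot be told apart from less RNA per cell. The ARC libraries were sequenced in a single pool and the PVH libraries in another, so nucleus and sequencing pool coincide and their parts in any difference below cannot be told apart.

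The ARC lies at the base of the hypothalamus, where AgRP and POMC neurons respond to leptin, insulin and nutrients. Many of their axons end in the PVH, whose oxytocin, corticotropin-releasing and thyrotropin-releasing neurons control feeding and the pituitary. A miRNA is a short RNA cut from a hairpin precursor. It is loaded into Argonaute and represses mRNAs that pair with its seed, and miRNAs with the same seed can share targets. Some miRNAs mark cell types of the brain, such as miR-9, miR-124, miR-128 and miR-218 in neurons, miR-126 in endothelium and miR-219 in oligodendrocytes, and miR-7 is known from hypothalamic neuroendocrine cells, pituitary and pancreatic islets.

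The values are log2(CPM + 1), where CPM is the read count scaled to a fixed library total with the authors' scale factor for each library, and a difference is ARC minus PVH on that log2 scale. A miRNA was called when limma, fitted across all 172 miRNAs with the mouse as a term, gave a Benjamini-Hochberg adjusted p under 0.05. In Off-C mice 2 miRNAs were higher in ARC (1.16% of those tested) and 24 were lower in ARC than in PVH (14.0%). The scaling was set within each table of a nucleus, Off-Ob libraries included, which moves all ARC values against all PVH values. The ARC table held an Off-Ob library, that of mouse F42A, with a scale factor of 0.47. Its part in the shift between the nuclei of Off-C mice was not tested. The median difference of the 172 miRNAs was -0.27 in the deposited values, with 125 miRNAs (72.7%) below 0, and -0.12 in plain CPM, where 4 miRNAs were called higher (2.33%) and 12 lower in ARC (6.98%). With scaling set jointly over the 12 libraries by trimmed means the median was 0.03, and 3 miRNAs were called higher and 3 lower (1.74% each). Median ratios gave 3 and 3, a total without let-7 gave 3 and 10, and quantile normalization gave 2 and 3. The same 5 miRNAs were called under all 6 scalings: miR-92b-5p and miR-7b-5p, higher in ARC, and miR-150-5p, miR-9-5p and miR-218-5p, lower in ARC. All 26 miRNAs called in the deposited values kept their direction under the 6 scalings, as did 120 of all 172 miRNAs. The 26 had been picked by their differences in these same libraries, and a scaling mainly shifts all miRNAs together. Their signs were therefore nearly fixed in advance. Of the 24 lower in ARC, 12 were called in the deposited values only. These were miR-124-3p, miR-136-3p, miR-181a-5p, miR-190a-5p, miR-344b-3p, miR-382-5p, miR-434-3p, miR-487b-3p, miR-495-3p, miR-1983, miR-3102-3p and miR-5097, each of which also stayed called in at most 3 of the 6 fits that left out a mouse.

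The mature sequences of the miRNAs on which the comparison turns are given from RefSeq (GRCm38.p6), 5′ to 3′, with the seed (bases 2 to 8) in capitals. The first 4 were called higher in ARC in the deposited values or in plain CPM, the others were called lower in ARC, and miR-7a-5p and miR-7b-5p have the same seed.
miR-92b-5p: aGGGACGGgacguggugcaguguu
miR-7b-5p: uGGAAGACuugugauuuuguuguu
miR-7a-5p: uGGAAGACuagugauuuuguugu
miR-211-5p: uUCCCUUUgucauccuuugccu
miR-9-5p: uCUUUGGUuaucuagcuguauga
miR-218-5p: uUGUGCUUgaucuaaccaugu
miR-128-3p: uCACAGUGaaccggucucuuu
miR-135a-5p: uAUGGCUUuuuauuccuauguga
miR-369-5p: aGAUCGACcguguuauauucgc
miR-379-3p: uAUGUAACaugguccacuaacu
Apart from the miR-7 pair, the seeds printed here all differ. miR-379-3p has the seed of miR-411-3p, which was measured but is not printed. Counted from the 5′ end, miR-7a-5p and miR-7b-5p differ at A10U, and miR-7b-5p has 1 more base at its 3′ end. A read with an error at that base could pass from the abundant miR-7a-5p to miR-7b-5p, so a part of the miR-7b-5p reads is uncertain. Of the 172 miRNAs, 149 matched a mature sequence of the table.

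The libraries were shallow. Off-C ARC libraries held 35953 to 54964 reads assigned to the 172 miRNAs, and PVH libraries held 22495 to 56253 reads, so that 1 read was worth 15.1 to 26.3 CPM in ARC and 18.8 to 39.7 CPM in PVH. Only 6 miRNAs had 0 reads in at least 1 of the 12 libraries. Levels of the 172 miRNAs correlated with r = 0.92 to 0.97 between pairs of ARC libraries, 0.88 to 0.96 between pairs of PVH libraries and 0.87 to 0.95 between an ARC and a PVH library of different mice. Between the nuclei of the same mouse r was 0.88 to 0.93. The first principal component held 26.3% of the variance and had the 6 ARC libraries on its negative side and the 6 PVH libraries on its positive side. A second component, with 24.8%, parted the PVH libraries of RC5A, RC8A and RC13A (scores 2.31 to 9.67) from those of RC9A, RC11A and RC12A (-4.68 to -4.24), and let-7 took 40.9% to 42.6% of reads in the first 3 and 30.5% to 34.4% in the others. The ARC libraries spread on that component too, from -5.46 (RC13A) and -4.26 (RC5A) to 3.60 (RC12A). In these, let-7 took 34.0%, 33.8% and 46.8% of reads. Nothing in the labels names a batch that follows the split of the PVH libraries.

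**Figure D1:**
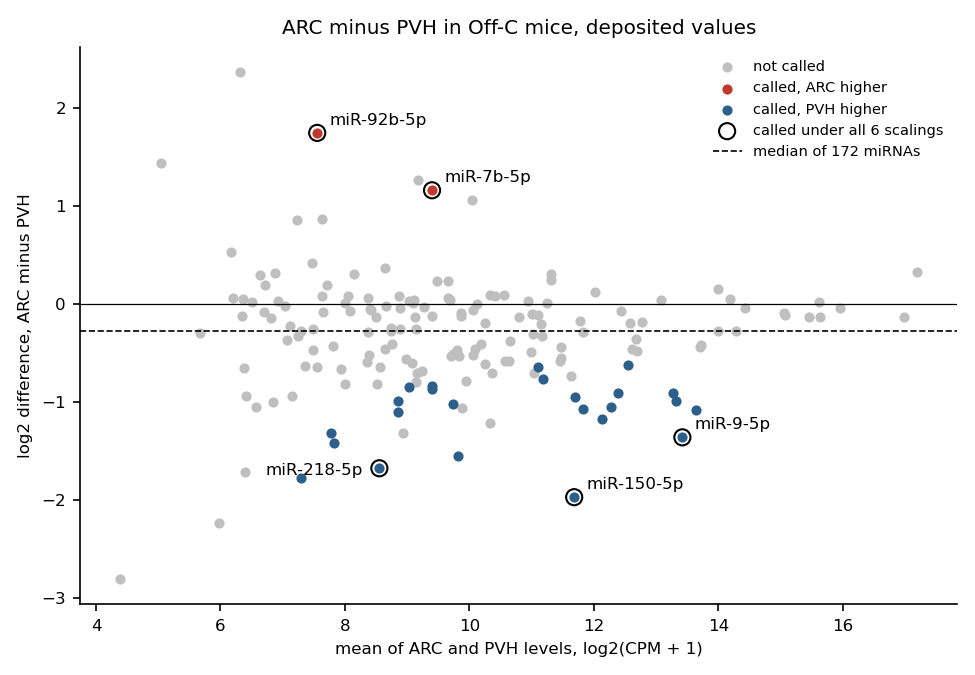
Log2 difference (ARC minus PVH, y axis) against the mean of the ARC and PVH levels (log2(CPM + 1), x axis) for 172 miRNAs in 6 Off-C mice. Of the called miRNAs, 24 lie below 0 and 2 above, the dashed line is the median of all miRNAs (-0.27), and circles mark the 5 called under all 6 scalings.

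On the ARC side, the miRNA with the largest called difference was miR-92b-5p. It is the 5′ arm of a hairpin whose 3′ arm belongs to the miR-25/92 seed family, Mir92b at chr3:89227116-89227198 on the minus strand. Mir92b lies within no other gene in GENCODE vM21, small RNA and unconfirmed genes not counted. Partial overlap was not checked. miR-92b-5p measured 196, 358 and 564 CPM (lowest, median and highest of the 6 libraries) in ARC, against 56.3, 107 and 159 CPM in PVH. Every ARC library lay above every PVH library. Its level was 8.43 ± 0.50 in ARC and 6.68 ± 0.61 in PVH (log2(CPM + 1), SD, n = 6 each), a difference of 1.75 ± 0.31 (SE) or 3.37-fold (limma adjusted p = 0.0068), and ARC was higher in 6 of 6 mice. Its reads were few, 12 to 24 per ARC library and 2 to 7 per PVH library. The call held with each of the 6 mice left out, with differences of 1.63 to 1.92.

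Both miR-7 guide strands were higher in ARC in each of the 6 mice, but miR-7a-5p was called only under some scalings. Mir7b, the only source of miR-7b-5p, lies at chr17:56242988-56243098 on the plus strand and within no other gene by the same check. miR-7b-5p measured 814, 995 and 1339 CPM in ARC and 278, 460 and 694 CPM in PVH, with no overlap between the nuclei. Its difference was 1.16 ± 0.27 (2.24-fold, limma adjusted p = 0.019). Leaving out RC11A or RC9A ended the call, at differences of 0.99 (adjusted p = 0.061) and 1.02 (adjusted p = 0.090). In plain CPM the call was lost without RC8A or RC9A.

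miR-7a-5p had the highest mean CPM over the 12 libraries, although let-7c-5p had more reads in 2 of 6 ARC and 3 of 6 PVH libraries. It is cut from 2 hairpins. Mir7-1 lies in an intron of Hnrnpk at chr13:58392779-58392886 on the minus strand. Mir7-2 lies at chr7:78888277-78888373 on the plus strand, within no other gene by that check. miR-7a-5p took 15.2%, 20.2% and 21.9% of reads (lowest, median and highest) in ARC, against 11.1%, 13.5% and 15.2% in PVH. In the deposited values its difference was 0.33 ± 0.14 and was not called (adjusted p = 0.16). In plain CPM it was 0.49 (adjusted p = 0.033) and with joint trimmed means 0.64 (adjusted p = 0.017), while it was 0.07 with quantile normalization (adjusted p = 0.79). Quantile normalization gives a rank the same value in every library. As miR-7a-5p and let-7c-5p held the top ranks of each library, a small difference under that scaling was nearly fixed in advance. Without RC9A the difference in plain CPM was 0.43 (adjusted p = 0.16), and of the 6 leave-one-out fits in plain CPM only that without RC12A kept the call.

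A ratio within a library does not depend on the scaling. For every 1000 reads of miR-7a-5p there were 5.05, 6.09 and 7.06 reads of miR-7b-5p in ARC (lowest, median, highest), against 2.21, 3.37 and 4.91 in PVH. The ratio was higher in ARC in all 6 mice, and the nuclei did not overlap. The passenger strand miR-7a-1-3p, which only Mir7-1 can give, differed by 0.31 ± 0.24 (adjusted p = 0.44), and miR-7a-2-3p, specific to Mir7-2, by -0.22 ± 0.36 (adjusted p = 0.81) at 3 to 11 reads per library. Per 1000 reads of miR-7a-5p, the median of miR-7a-1-3p was 17.7 in ARC and 17.5 in PVH. These 4 miRNAs form the list of pituitary and endocrine miRNAs, of which 1 was called higher in ARC, beside 1.16% of all miRNAs, and none lower. Its median difference was 0.32 beside -0.27 for all miRNAs tested. In plain CPM 2 of the 4 were called higher, beside 2.33%, with a median of 0.48 beside -0.12, and with joint trimmed means 2 were, beside 1.74%, with a median of 0.63 beside 0.03.

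miR-211-5p, cut from an intron of Trpm1 and known from pigment cells, has the seed of miR-204, a miRNA of choroid plexus and pigment epithelium. It was the only measured member of the ependyma and choroid plexus list. Its levels were 846, 1775 and 2706 CPM in ARC and 357, 794 and 1343 CPM in PVH, and they overlapped. The difference of 1.06 ± 0.35 was not called in the deposited values (adjusted p = 0.073) but was called in plain CPM (1.22, adjusted p = 0.034). It was higher in ARC in 4 of 6 mice in the deposited values and in 6 of 6 in plain CPM. In plain CPM the call was lost without RC8A, RC9A, RC11A or RC12A, with adjusted p of 0.097, 0.16, 0.10 and 0.083.

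**Figure D2:**
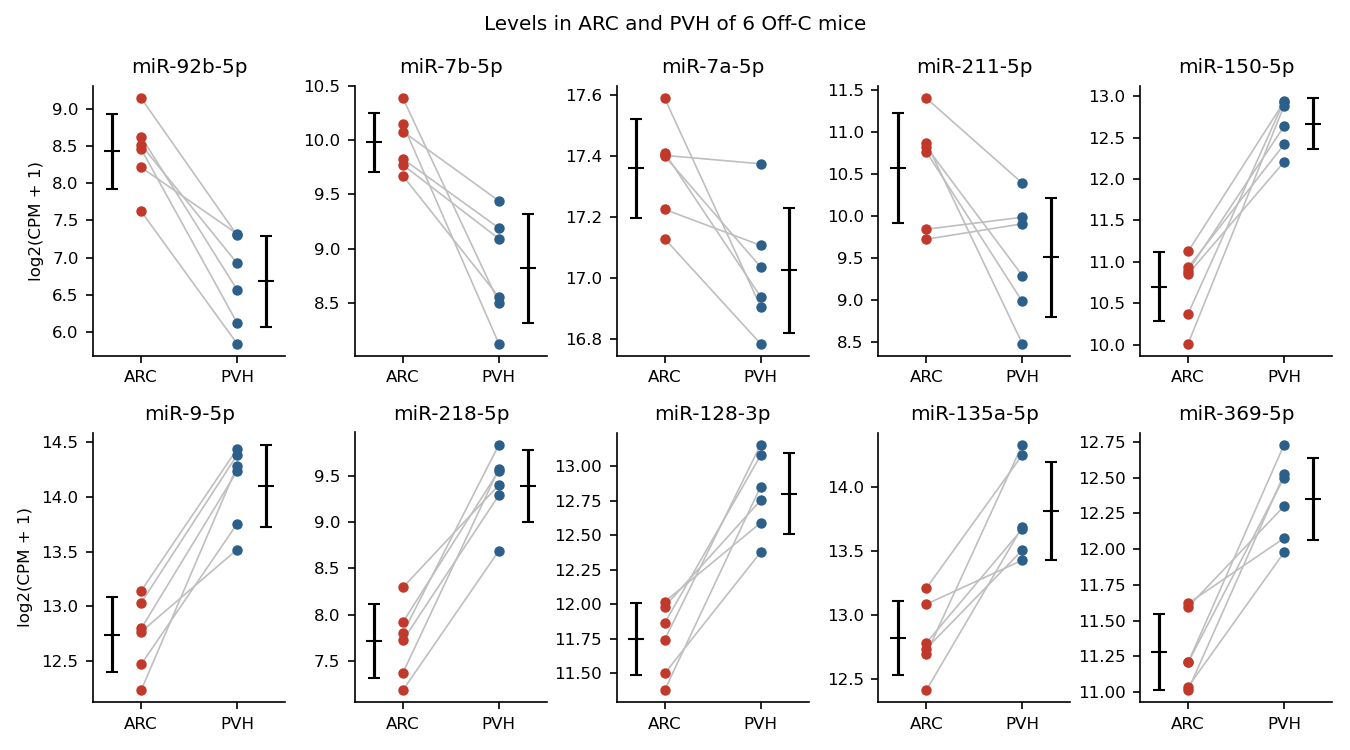
Levels of 10 miRNAs (log2(CPM + 1), y axis, scaled per panel and not starting at 0) in ARC (left) and PVH (right) of 6 Off-C mice. Points are libraries, grey lines join the nuclei of a mouse and bars are mean ± SD. miR-92b-5p and miR-7b-5p are higher in ARC without overlap, and the 6 panels from miR-150-5p to miR-369-5p are lower in ARC without overlap.

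Among the miRNAs lower in ARC, miR-150-5p had the smallest p of all 172. It is best known from mature lymphocytes, where it represses Myb, and is also found in brain. miR-150-5p measured 1032, 1872 and 2233 CPM in ARC, against 4720, 6953 and 7849 CPM in PVH. Every ARC library lay below every PVH library. On the log2 scale the levels were 10.70 ± 0.42 in ARC and 12.67 ± 0.31 in PVH (SD, n = 6 each), a difference of -1.97 ± 0.24 (limma adjusted p = 0.00099), or 3.92-fold higher in PVH. The paired differences ran from -2.87 to -1.35. The leukocyte and microglia list did not include miR-150-5p. Its only measured member, miR-146a-5p, differed by 0.08 ± 0.22 (adjusted p = 0.94). No member of the red blood cell list was measured.

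miR-9-5p, a miRNA of neural progenitors and neurons that targets Tlx and Rest, was the most abundant of the 5 miRNAs called under all scalings. Its 3 hairpins lie on chromosomes 3, 13 and 7 in long noncoding RNA genes. miR-9-5p measured 4820, 7047 and 9037 CPM in ARC and 11733, 19580 and 22159 CPM in PVH. The difference was -1.36 ± 0.19 (adjusted p = 0.0017), and the nuclei did not overlap. Its call held without each mouse in turn in the deposited values, and in plain CPM it was lost only without RC9A. The other arm of the same hairpins, miR-9-3p, differed by -1.17 ± 0.30 (adjusted p = 0.033), also without overlap, but its call was lost without RC8A, RC9A or RC13A, at adjusted p of 0.063, 0.085 and 0.070. Measured against the similarly abundant miR-125b-5p, which differed by -0.43 ± 0.15 (adjusted p = 0.075), miR-9-5p gave 447 to 759 reads per 1000 in ARC and 823 to 1405 per 1000 in PVH.

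miR-218-5p is cut from introns of the axon guidance genes Slit2 (Mir218-1, chr5:48223942-48224051, plus strand) and Slit3 (Mir218-2, chr11:35616816-35616925, plus strand), and is known from motor neurons. It measured 144, 216 and 313 CPM in ARC and 412, 713 and 912 CPM in PVH, a difference of -1.68 ± 0.25 (adjusted p = 0.0027) without overlap, at 7 to 18 reads per ARC library and 12 to 40 per PVH library. miR-128-3p, which limits neuronal excitability and sits in introns of R3hdm1 and Arpp21, measured 2657, 3573 and 4142 CPM in ARC, against 5311, 7142 and 9124 CPM in PVH. Its difference was -1.05 ± 0.19 (adjusted p = 0.0068). It was called in the deposited values, in plain CPM and with the total without let-7, but not with joint trimmed means (-0.75, adjusted p = 0.054).

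All 12 measured members of the neuron list had a negative difference, beside 72.7% of all miRNAs, and 5 of them were called lower in ARC, beside 14.0%. The fifth, miR-124-3p, outside the rule for named miRNAs and chosen after its value was seen, differed by -1.32 ± 0.39 (adjusted p = 0.047), was not called under the other scalings (adjusted p = 0.14 in plain CPM) and stayed called only without RC8A when a mouse was left out. miR-124-3p rested on few reads, 4 to 12 per ARC library and 3 to 35 per PVH library. The list's median was -0.94, beside -0.27 for all miRNAs tested. In plain CPM 4 were called, beside 6.98% of all miRNAs, and 11 were negative, beside 56.4%, with a median of -0.78 beside -0.12. With joint trimmed means 2 were called, beside 1.74%, and 10 were negative, beside 47.1%, with a median of -0.63 beside 0.03. Together the 12 took 2.23% to 3.23% of reads in ARC and 3.57% to 5.67% in PVH, with no overlap. Of this, miR-9-5p alone took 0.50% to 1.09% in ARC and 1.05% to 2.23% in PVH. Without both arms of miR-9 the summed shares of the nuclei overlapped. The list counts both arms of the miR-9, miR-132 and miR-138 hairpins as separate members.

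Of the 3 endothelial and smooth muscle miRNAs of the vessel list, 1 was called lower in ARC, beside 14.0% of all miRNAs, and none with joint trimmed means. miR-126-5p, whose hairpin Mir126a lies within the endothelial gene Egfl7, differed by -1.08 ± 0.30 (adjusted p = 0.039) with overlap between the nuclei, and its call was lost without RC5A, RC8A, RC9A or RC13A (adjusted p of 0.054, 0.062, 0.13 and 0.089). miR-126-3p differed by -1.31 ± 0.57 (adjusted p = 0.16) and miR-143-3p by -0.55 ± 0.33 (adjusted p = 0.29). Leaving out 1 mouse moved miR-126-3p to -0.73 (without RC12A) and miR-143-3p to -0.31 (without RC9A). The summed level of the 3 ran from 7703 to 24720 CPM in ARC and from 18807 to 33053 CPM in PVH. The oligodendrocyte markers miR-219-2-3p and miR-338-3p differed by -0.99 ± 0.60 (adjusted p = 0.30) and -0.63 ± 0.40 (adjusted p = 0.33), with summed levels of 131 to 376 CPM in ARC and 225 to 554 CPM in PVH. None of these markers was at 0 in any library, and the part of vessel, oligodendrocyte and choroid plexus content in the differences of other miRNAs was not tested.

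The sister miRNAs miR-135a-5p and miR-135b-5p, whose guide strands are nearly identical so that reads can pass between them, moved together. miR-135a-5p measured 5467, 6951 and 9484 CPM in ARC and 11028, 13131 and 20563 CPM in PVH (difference -0.99 ± 0.19, adjusted p = 0.0078). miR-135b-5p measured 3074, 3868 and 5491 CPM in ARC and 6268, 6716 and 10648 CPM in PVH (difference -0.91 ± 0.19, adjusted p = 0.0099). Neither overlapped, and the ratio of miR-135b-5p to miR-135a-5p reads was 0.56 in ARC and 0.51 in PVH (medians). In the deposited values both calls held without each mouse in turn, but not with joint trimmed means (adjusted p of 0.070 and 0.10). In plain CPM miR-135a-5p was not called without RC8A or RC9A, and miR-135b-5p not without RC5A, RC8A, RC9A or RC12A.

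miR-1224-3p, a spliced-intron miRNA of Vwa5b2, measured 301, 481 and 917 CPM in ARC and 1071, 1653 and 2333 CPM in PVH. Its difference was -1.55 ± 0.34 (adjusted p = 0.013), which fell short of the threshold without RC9A (-1.49, adjusted p = 0.067). The call also did not hold with joint trimmed means, median ratios or quantile normalization (adjusted p of 0.067, 0.079 and 0.12). Entries numbered 2000 or above are recent additions to the miRNA catalogue, some of which may be fragments of other small RNAs. Of 13 measured, 3 were called lower in ARC, beside 14.0% of all miRNAs, namely miR-5100 (-0.91 ± 0.17, adjusted p = 0.0076), miR-5097 (-1.11 ± 0.28, adjusted p = 0.033) and miR-3102-3p (-0.64 ± 0.19, adjusted p = 0.047). miR-5097 and miR-3102-3p were called under no other scaling, and miR-3102-3p stayed called only without RC5A when a mouse was left out. The median of the 13 was -0.30, close to that of all miRNAs.

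The imprinted Dlk1-Dio3 cluster on chromosome 12, expressed from the maternal allele, gave 31 measured miRNAs. Of these 7 were called lower in ARC, beside 14.0% of all miRNAs, and none higher. Their median was -0.60, and 28 of 31 were negative, beside 72.7% of all miRNAs. miR-369-5p measured 2069, 2365 and 3148 CPM in ARC and 4030, 5417 and 6792 CPM in PVH (difference -1.07 ± 0.20, adjusted p = 0.0076). miR-379-3p measured 499, 591 and 783 CPM in ARC and 1014, 1233 and 1441 CPM in PVH (difference -1.01 ± 0.21, adjusted p = 0.010). Neither overlapped. miR-487b-3p (-0.76 ± 0.21) and miR-434-3p (-0.86 ± 0.24, adjusted p = 0.039 each) were called with overlapping nuclei, and under no other scaling. The cluster took 3.51% to 4.72% of reads in ARC and 4.58% to 7.06% in PVH, and its share was lower in ARC in all 6 mice. In plain CPM 2 of 31 were called, no more than the 6.98% of all miRNAs, with a median of -0.45 beside -0.12. With joint trimmed means none was called, 25 were negative, beside 47.1%, and the median was -0.30 beside 0.03.

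**Figure D3:**
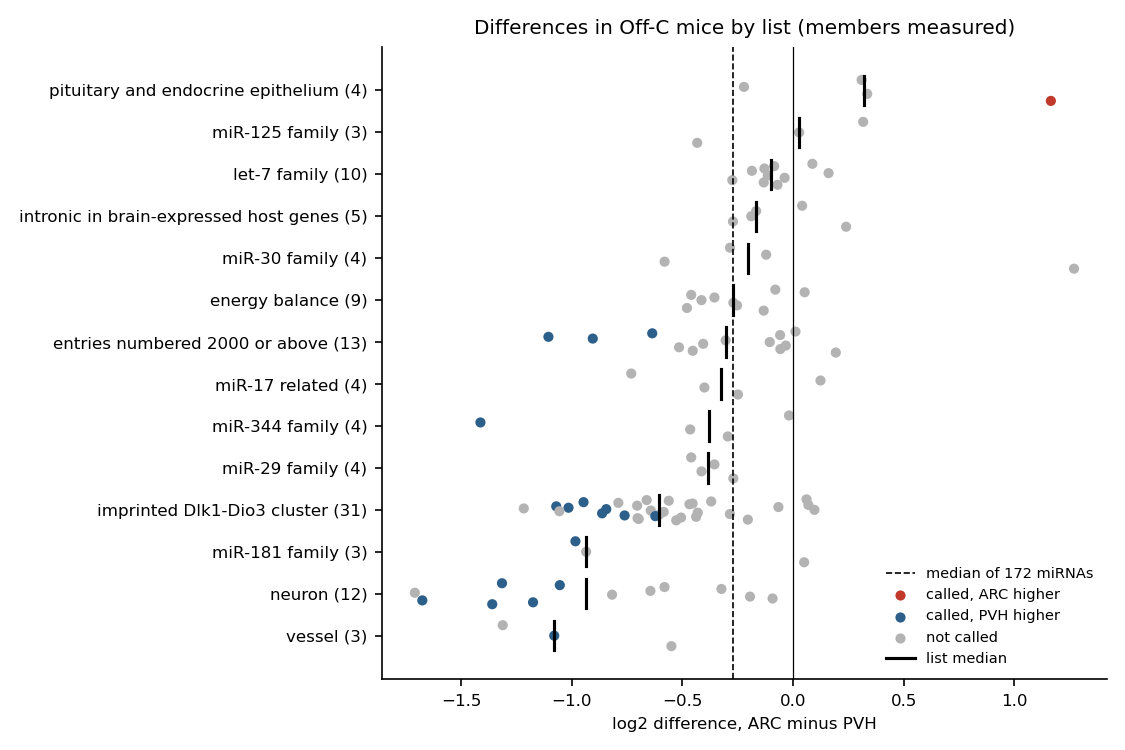
Log2 difference (ARC minus PVH, x axis) of each measured miRNA in 6 Off-C mice, by list (rows, number measured in brackets). Black bars are list medians, the dashed line is the median of 172 miRNAs (-0.27), and the medians of the vessel (-1.08), neuron and miR-181 lists (-0.94 each) lie farthest below it.

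The let-7 family, among the most abundant miRNAs of brain, took 33.8% to 46.8% of reads in ARC and 30.5% to 42.6% in PVH, and the share was higher in ARC in 3 of 6 mice. None of 10 members was called under any of the 6 scalings. Differences ran from -0.27 to 0.16, and their median was -0.10. let-7c-5p, second in mean CPM over the 12 libraries, measured 95459, 116161 and 180375 CPM in ARC and 92109, 141792 and 178604 CPM in PVH, a difference of -0.13 with a 95% interval of -0.62 to 0.36 that turned positive in plain CPM (0.03). let-7e-5p differed by 0.16 (interval -0.30 to 0.62). Reads were spread unevenly over the family, with 1 to 32 per library for let-7a-5p and 2322 to 8895 for let-7c-5p. Whether reads passed between these similar sequences was not tested, so differences of single members are uncertain.

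In the miR-181 family miR-181a-5p was called lower in ARC in the deposited values (-0.98 ± 0.26, adjusted p = 0.038) but under no other scaling (adjusted p = 0.14 in plain CPM), and with a mouse left out it stayed called only without RC5A. miR-181b-5p differed by -0.94 ± 0.38 (adjusted p = 0.14) and miR-181c-5p, from another hairpin, by 0.05 ± 0.22 (adjusted p = 0.96). Of 4 members of the miR-344 family only miR-344b-3p was called (-1.41 ± 0.42, adjusted p = 0.047), beside 14.0% of all miRNAs called lower in ARC, and none was called in plain CPM or with joint trimmed means. No member was called in the lists of energy balance (9 measured, median -0.27), miR-30 (4, median -0.20), miR-29 (4, -0.38), miR-99 and miR-100 (1, 0.01), miR-125 (3, 0.03), miR-17 related (4, -0.33) and intronic miRNAs of brain-expressed host genes (5, -0.17). In the energy balance list, miR-384-3p differed by -0.48 ± 0.21 and miR-29b-3p by -0.36 ± 0.16 (adjusted p of 0.16 and 0.18). miR-505-5p, the miRNA on which the study centred, differed by -0.13 ± 0.39 between the nuclei of Off-C mice (adjusted p = 0.95). Its levels were 197, 298 and 988 CPM in ARC and 246, 335 and 625 CPM in PVH. The other called miRNAs, all lower in ARC, fell outside the rule for named miRNAs and were chosen after their values were seen: miR-136-3p, miR-382-5p and miR-495-3p of the Dlk1-Dio3 cluster, miR-190a-5p and miR-1983, with differences between -1.77 and -0.62.

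Several miRNAs with positive differences rested on few reads. miR-31-5p had the largest positive difference, 2.37 ± 1.03, but was not called (adjusted p = 0.16). It had 2 to 16 reads per ARC library and 0 to 8 per PVH library, and without RC8A, whose PVH library had 0 reads, the difference was 1.21. miR-24-1-5p (0.86 ± 0.36), miR-28a-3p (0.88 ± 0.46) and miR-652-5p (1.44 ± 0.79) were likewise not called, with adjusted p of 0.16, 0.23 and 0.25, and without RC8A the difference of miR-652-5p was 0.77. miR-574-3p (0.37 ± 0.27) had an adjusted p of 0.41. miR-744-5p (0.25 ± 0.19, adjusted p = 0.44) was not short of reads, with 60 to 158 per library.

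Over the 149 miRNAs with a sequence, the difference had a Spearman rho of 0.14 with the GC content of the mature sequence and 0.08 with its length, and over all 172 a rho of -0.07 with the mean level. These are descriptions across miRNAs of the same 12 libraries. The groups did not overlap for 15 miRNAs that were lower in ARC (8.72%) and for 2 that were higher (1.16%), and 15 of those 17 were among the 26 called. Leaving out 1 mouse changed the count of calls from 26 to 10 without RC9A, 14 without RC11A, 15 without RC12A, 16 without RC8A, 18 without RC13A and 23 without RC5A. Of the 26 miRNAs, 10 stayed called in every such fit.

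**Figure D4:**
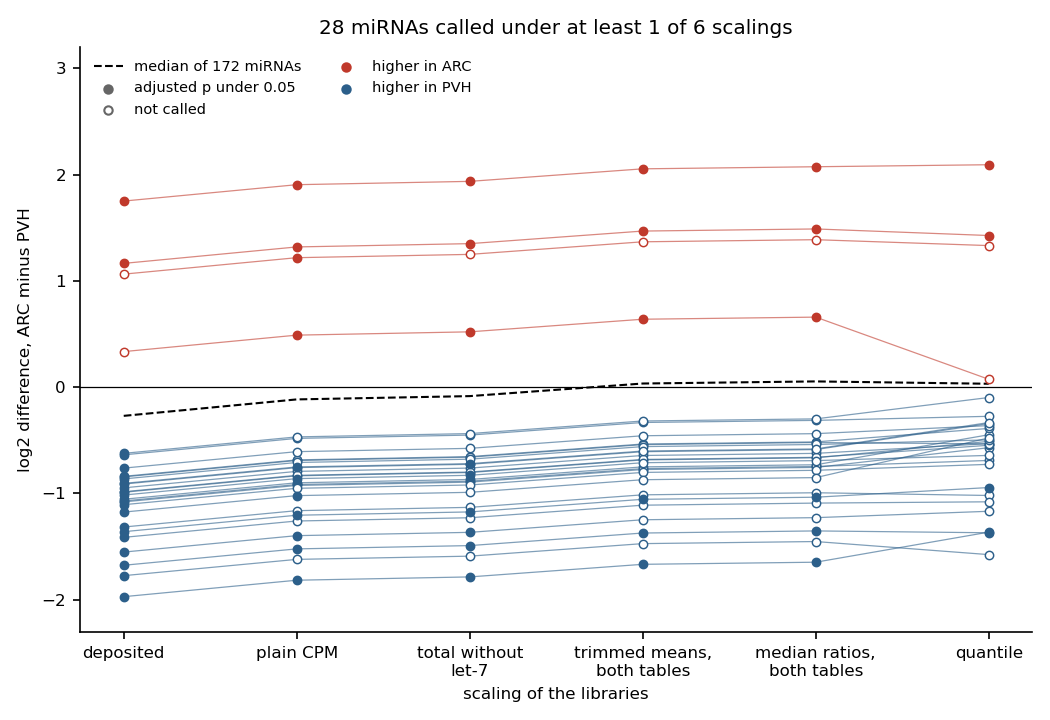
Log2 difference (ARC minus PVH, y axis) under 6 scalings of the libraries (x axis) for 28 miRNAs called under at least 1 of them in 6 Off-C mice. Filled points have an adjusted p under 0.05, open points do not, and the dashed line is the median of 172 miRNAs, which moves from -0.27 in the deposited values to 0.05 with median ratios.

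The same contrast was measured in 4 Off-Ob mice with both nuclei, which share no library with the Off-C mice but were sequenced in the same pools and scaled in the same tables. No miRNA was called there by limma (25 at an unadjusted p under 0.05). The ARC library of F42A stood apart, with 20 miRNAs at 0 reads, and without that mouse 3 miRNAs were called higher and 45 lower in ARC. All 26 miRNAs called in Off-C mice had the same direction in Off-Ob mice, and so they did without F42A, while 131 of the 172 (76.2%) were below 0 in Off-Ob mice. In 24 of the 26 all 4 Off-Ob mice had that direction, beside 56 of 172 among all miRNAs.

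The difference of miR-150-5p was -1.89 in Off-Ob mice and -1.97 in Off-C mice. For miR-92b-5p it was 1.77 in Off-Ob and 1.75 in Off-C mice, and for miR-7b-5p 0.97 in Off-Ob and 1.16 in Off-C mice. miR-9-5p gave -1.66 in Off-Ob mice, of which F42A alone had -3.95 and the others -1.10 to -0.77, against -1.36 in Off-C mice. miR-218-5p gave -1.53 in Off-Ob and -1.68 in Off-C mice. Without F42A the Off-Ob differences were -1.70 for miR-150-5p, 1.25 for miR-92b-5p, 0.95 for miR-7b-5p, -0.89 for miR-9-5p and -1.14 for miR-218-5p, so that all 5 kept their direction. No miRNA passed the threshold in a limma test of the difference between the maternal groups (nucleus by maternal group, smallest adjusted p = 0.934, none at an unadjusted p under 0.05). The test had 4 Off-Ob mice and does not show that the contrasts were equal.

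**Figure D5:**
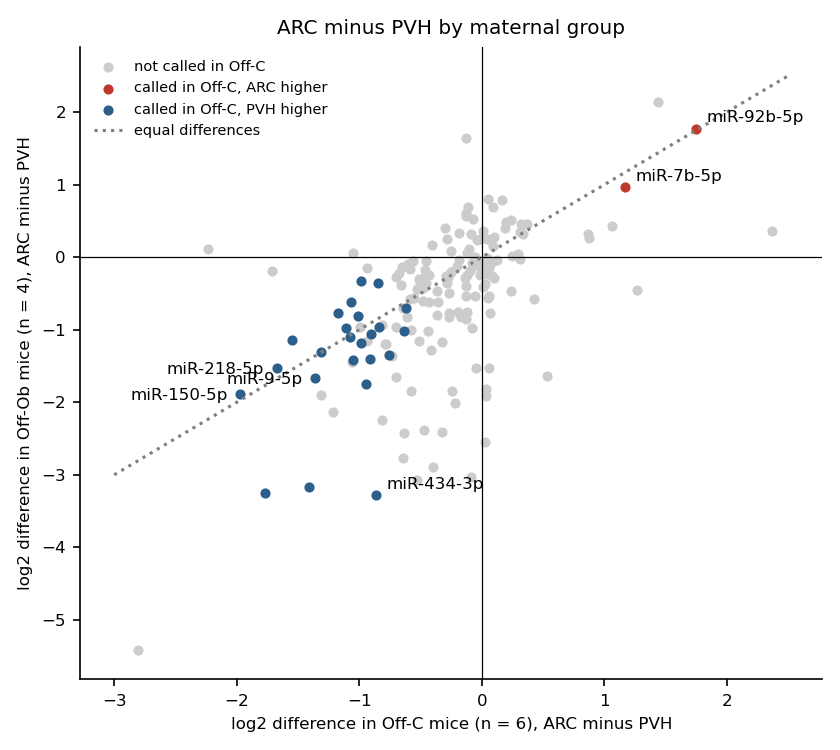
Log2 difference (ARC minus PVH) of 172 miRNAs in 4 Off-Ob mice (y axis) against that in 6 Off-C mice (x axis), with the dotted line at equal differences. The 26 miRNAs called in Off-C mice have the same sign in both groups, and miR-434-3p lies at -3.27 in Off-Ob mice (-1.03 without F42A) and -0.86 in Off-C mice.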

How the data were processed

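Tables of log2(CPM + 1) per miRNA, 1 for ARC and 1 for PVH, were deposited by the authors. RNA from laser-captured tissue was made into TruSeq small RNA libraries, sequenced on a HiSeq instrument and, per the submitters' processing notes, mapped with Bowtie 1.2.3 to GRCm38 and normalized with edgeR 3.36.0. The deposited log2 values returned whole reads (within 0.01) in all 22 libraries once each library's scale factor was found. These factors were 1.03 to 1.21 for Off-C ARC and 0.89 to 1.12 for Off-C PVH libraries. The ARC library of the Off-Ob mouse F42A, scaled in the same table as the Off-C ARC libraries, had a factor of 0.47.

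Off-C libraries were compared with limma 3.58.1 in R 4.3.3 (empirical Bayes with trend, mouse as a fixed term, two-sided, Benjamini-Hochberg over 172 miRNAs with CPM of 1 in at least 6 libraries). Nuclei were paired by animal through the deposited identifier sheet. Deviations from the nucleus means correlated between the nuclei of a mouse with r from -0.42 to 0.15. Only for RC9A did the ARC library correlate best with the PVH library of the same mouse. Per the study's methods 1 male per litter entered an experiment, so the mouse was the replicate. Named miRNAs were the 10 of smallest p in each direction, the 5 most abundant, up to 4 of smallest p per list and miR-505-5p. Members and lists were chosen with earlier results of these data known. Alternatives were other scalings, filters, pseudocounts and fits, limma-voom on recovered reads, and each mouse left out. The fit was also run on simulated reads in plain CPM, without a mouse effect or a scale shift between the nuclei. That run does not bear on the deposited scaling. Depth limits precision, since 1 read was worth 15.1 to 39.7 CPM in Off-C libraries.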

Additional observations from a re-analysis of the deposited data

Results flagged for a closer look

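For the miRNAs described here and miR-138-2-3p, each nucleus was checked for a library far from the other 5 (Dixon's ratio above its 95% limit, which chance gives in about 1 in 20 groups), and 4 of 102 groups were marked. miR-30e-3p was at 0.00 (0 reads) on the log2(CPM + 1) scale in the PVH library of RC5A, where the next lowest PVH library had 9.67, and without RC5A its difference of 1.27 turned to -0.49. miR-652-5p was at 0.00 (0 reads) in the PVH library of RC8A, next to 4.31, and without RC8A its difference of 1.44 was 0.77. miR-31-5p was at 5.59 (2 reads) in the ARC library of RC12A, next to 7.54. miR-5100 was at 12.32 (295 reads) in the ARC library of RC9A, next to 12.77. Without that mouse it stayed called in the deposited values but not in plain CPM. The cause of these values was not tested.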

How the results depend on the processing

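Counts of called miRNAs depended on the scaling of the libraries. From 26 in the deposited values (2 higher and 24 lower in ARC), the count was 16 in plain CPM (4 and 12), 6 with trimmed means (3 and 3), 6 with median ratios (3 and 3), 13 with the total without let-7 (3 and 10) and 5 with quantile normalization (2 and 3). It was 13 with all 22 libraries in the fit and the mouse as a random instead of a fixed term, 2 changes made together (2 and 11), 16 without the trend (2 and 14), 16 with limma-voom on recovered reads (4 and 12) and 15 when a difference of at least 1 was also asked (2 and 13). Without the replicate block, that is with unpaired nuclei, 32 were called, all 26 among them. Pseudocounts of 0.5, 10 and 100 CPM, filters and the robust fit gave 26 to 28. With 1 mouse left out, counts were 10 to 23 (1 to 3 higher, 9 to 20 lower) in deposited values and, chosen after seeing the data, 3 to 14 (1 to 3 higher, 2 to 11 lower) in plain CPM, lowest without RC9A. In Off-Ob mice 0 were called, but 48 without F42A and 11 in plain CPM without F42A. The test of nucleus by maternal group gave 0 throughout.

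No called miRNA changed direction under any of these alternatives, which their selection by difference in the same libraries made likely. Over all miRNAs, 120 of 172 kept their sign under the 6 scalings, and of 10 let-7 members 2 were above 0 in the deposited values, 8 in plain CPM and 10 with trimmed means. Of the miRNAs described and not called, let-7c-5p turned from -0.13 to 0.025 in plain CPM, 0.17 with trimmed means, 0.19 with median ratios, 0.056 with the total without let-7 and 0.019 with voom. miR-505-5p turned from -0.13 to 0.021, 0.17, 0.19 and 0.052 in the same first 4 settings, 0.070 with quantiles and 0.095 with voom. miR-7a-2-3p turned from -0.22 to 0.080 with trimmed means, 0.10 with median ratios and 0.077 with quantiles, and quantiles also turned miR-125b-5p (0.017) and miR-29b-3p (0.19). With 1 mouse left out, in deposited values or plain CPM, differences ran from -0.31 to 0.12 for let-7c-5p, -0.054 to 0.30 for miR-146a-5p, -0.065 to 0.31 for miR-181c-5p, -0.49 to 1.92 for miR-30e-3p, -0.56 to 0.20 for miR-505-5p and -0.39 to 0.075 for miR-7a-2-3p. The cause was not tested beyond the shift that a scaling gives to all miRNAs. Depth limits miRNAs of few reads, where 1 read more or less moves a level visibly.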
